A study of Mus musculus with 12 samples.

Results

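Interferon regulatory factors (Irfs) are transcription factors that share a DNA-binding domain, and their transcripts were followed in mouse cerebral vessels after a systemic injection of lipopolysaccharide (LPS), a component of the bacterial wall. The 8 genes were taken by name from the family (Irf1, Irf2, Irf3, Irf4, Irf5, Irf7, Irf8, and Irf9) and matched by symbol and Ensembl gene identifier, out of 54119 genes with summed fragments. All 8 had enough fragments to be tested. The mice were wild type C57BL6 animals of 2 to 3 months that received LPS at 10 mg/kg intraperitoneally and were killed 15 min, 30 min, or 4 h later, or received PBS. Each of these 4 groups had 3 libraries, and every library pooled 1 male and 1 female, so that the spread between libraries is the spread between pools and no value belongs to a single animal or sex. The samples were vessels isolated from perfused forebrains without meninges, and they still held other brain cells.

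In this family, Irf3 and Irf7 are the kinase-activated factors that switch on type I interferon genes, while Irf5 does so for inflammatory cytokine genes downstream of Toll-like receptors. Irf9 is the DNA-binding part of ISGF3, the complex that type I interferon receptors activate. Irf1 is an early inducible activator and Irf2 a related factor that often occupies the same sites as its antagonist. Irf4 and Irf8 are best known from lymphocytes and myeloid cells, where they bind DNA with partners such as Spi1 (PU.1) and Batf.

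Depth was 18.3 to 25.9 M fragments per library. The TMM scaling factors averaged 1.17 in PBS but 0.717 at 4 h, and a library-size scaling without them shifted the median of all genes at 4 h by -0.71 on the log2 scale. Summed endothelial markers (10 genes) ran from 13910 to 14310 CPM (fragments of a gene per 1 M fragments of the library after TMM scaling) in PBS and from 8907 to 8944 CPM at 4 h. Of the 10 genes 7 were called lower at 4 h and 1 higher, beside 13.8% and 19.0% of all genes. Markers of choroid plexus and ependyma (4 genes) reached 10296 to 10726 CPM in PBS, so the vessels were not free of that tissue, and 17320 to 18214 CPM at 4 h, where 3 of 4 were called higher. Erythrocyte markers (5 genes) ran from 2317 to 2492 CPM in PBS and from 6941 to 7306 CPM at 4 h, where all 5 were called higher. The part of these shifts in the Irf values at 4 h was not tested. None of the 17 marker lists was wholly at 0 in any group. In such bulk samples, fewer cells of a type and less RNA per cell cannot be told apart.

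The sequences upstream of 3 Irf genes are shown first because they were the ones that held the binding motifs of the pathway. RefSeq (GRCm38.p6) lists 11 transcription starts for the 8 genes. The 250 bases before each start were searched on both strands for the interferon-stimulated response element, which Irfs bind (ISRE, GAAANNGAAA), the gamma-activated site (GAS, TTCNNNGAA), and the NF-kB consensus. Matches occurred before 1 start each of Irf1, Irf2, and Irf8, and in none of the other 8 windows. Among all 32851 RefSeq windows of this length, 2.98% held the ISRE, 7.02% the GAS letters, and 7.25% the NF-kB consensus. A match describes the letters of the window and not binding. Capitals mark the matches in these plus-strand stretches, which end at the base before the RefSeq start for Irf1 and Irf8 and at the end of the last match for Irf2:
Irf1, chr11:53769764-53770013: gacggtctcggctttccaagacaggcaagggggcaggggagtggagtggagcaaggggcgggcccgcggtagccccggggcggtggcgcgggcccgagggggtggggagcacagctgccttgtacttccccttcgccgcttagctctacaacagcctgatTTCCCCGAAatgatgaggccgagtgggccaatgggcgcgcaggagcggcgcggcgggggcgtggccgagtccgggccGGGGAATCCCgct
Irf2, chr8:46739495-46739737: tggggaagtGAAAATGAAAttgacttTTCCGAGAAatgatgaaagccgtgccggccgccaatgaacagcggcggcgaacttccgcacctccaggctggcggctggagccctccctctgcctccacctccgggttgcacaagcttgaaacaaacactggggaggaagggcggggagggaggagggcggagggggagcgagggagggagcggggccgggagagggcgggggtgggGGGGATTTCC
Irf8, chr8:120736108-120736357: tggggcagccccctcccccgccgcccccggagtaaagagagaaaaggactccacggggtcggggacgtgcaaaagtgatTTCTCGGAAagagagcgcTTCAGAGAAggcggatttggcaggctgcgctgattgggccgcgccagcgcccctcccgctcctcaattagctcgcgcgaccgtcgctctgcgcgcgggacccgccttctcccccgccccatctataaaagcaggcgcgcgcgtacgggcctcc
The Irf1 stretch held 1 GAS match (chr11:53769924-53769932, 90 bases before the start) and 1 NF-kB match (chr11:53770001-53770010, 13 bases before it). Irf2 was the only gene with all 3 motifs, at 241 bases (ISRE), 224 bases (GAS), and 17 bases (NF-kB) before the RefSeq start. The GENCODE M21 annotation used for the counts starts Irf2 earlier, at chr8:46739732. That base lies inside the NF-kB match (chr8:46739728-46739737), so this match is not wholly upstream of the GENCODE gene. Irf8 had a pair of GAS matches at 171 and 153 bases and no NF-kB match. No start of Irf3, Irf4, Irf5, Irf7, or Irf9 had any of these letters in the window, which says nothing about sites elsewhere.

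To see how soon the family responded, each LPS time was compared with PBS. At 15 min no Irf gene passed the test of a change beyond 1.5-fold (edgeR quasi-likelihood fit with glmTreat, Benjamini-Hochberg adjusted over 19150 genes). None had an unadjusted p under 0.05, and DESeq2 and limma also called 0. Over all genes tested, 4.18% were called at this time, 3.31% higher and 0.872% lower. In CPM the libraries of 3 Irf genes (Irf1, Irf2, and Irf9) did not overlap PBS, beside 49.3% of all genes, and the same 3 were called with no fold limit, beside 38.6%. In TPM (transcript abundance corrected for length and scaled to the same total in each library) and in the deposited normalized counts only Irf1 and Irf9 stood apart from PBS at 15 min, beside 44.0% and 44.6% of all genes.

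At 30 min 1 of 8 was called, Irf1, where 4.58% of all genes were called, 3.78% higher and 0.799% lower. In CPM the libraries of 7 of 8 did not overlap PBS (46.7% of all genes), but in the deposited normalized counts 6 of 8 (42.2%) and in TPM only Irf1 (58.5%). With no fold limit 7 were called (36.9%), Irf4 as lower and the others as higher. These were not the same 7, as Irf8 did not overlap PBS but was not called, and Irf4 was called but overlapped PBS. At 4 h 7 of 8 were called, each of them higher, where 32.8% of all genes were called, 19.0% higher and 13.8% lower. The same count, 7 of 8, held for libraries that did not overlap PBS in CPM (70.9% of all genes) and for calls with no fold limit (68.5%). Irf3 was the exception to the calls at 4 h. The median log2 fold change of the 8 genes went from 0.12 at 15 min to 0.26 at 30 min and to 2.63 at 4 h, against -0.01 for all genes at 30 min and at 4 h. These 3 comparisons share the PBS libraries.

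**Figure D1:**
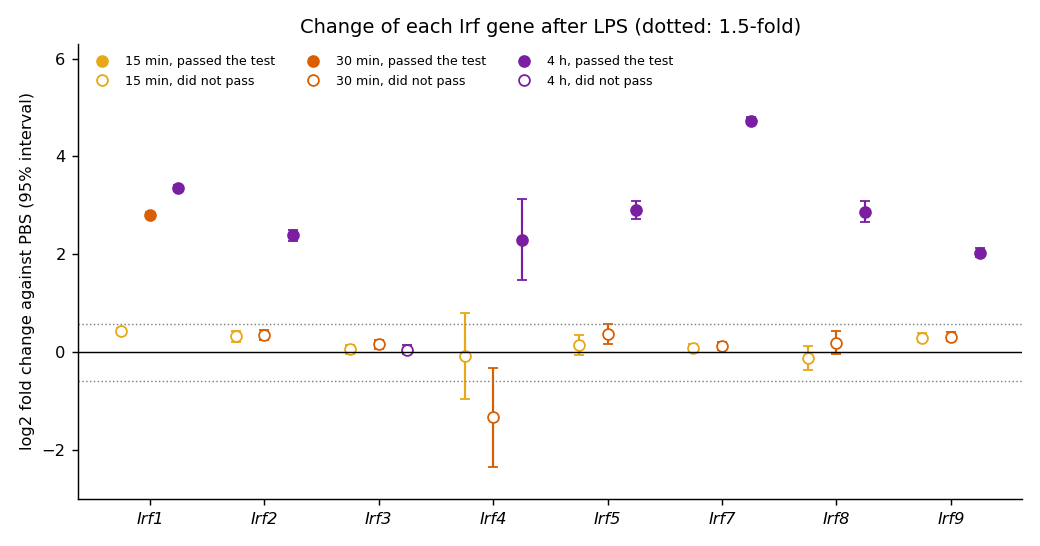
Log2 fold change of each Irf gene against PBS at the 3 times after LPS (vertical axis; edgeR estimate, bars are 95% intervals, 3 libraries a group; filled points passed the test, dotted lines mark 1.5-fold). Irf1 is the only filled point at 30 min, with 2.80, and every gene but Irf3 is filled at 4 h.

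Irf1, the early inducible activator (ENSMUSG00000018899, GRCm38 chr11:53770014-53778374, plus strand, protein coding), was the first to rise. Its level was 76.3, 80.0, and 78.8 CPM in the PBS libraries and 110, 103, and 105 CPM at 15 min. It then reached 553, 543, and 545 CPM at 30 min and 788, 813, and 815 CPM at 4 h. No library of a later group overlapped an earlier one in CPM, whereas in TPM the 30 min and 4 h libraries did. At 15 min the increase was 1.35-fold (95% interval 1.29 to 1.41), below the 1.5-fold limit (adjusted p = 1 for edgeR glmTreat). Against no change at all it had an adjusted p of 5.75e-11 in the same edgeR fit, a criterion that 38.6% of all genes met. At 30 min the rise was 6.97-fold (log2 2.80, SE 0.029, edgeR adjusted p = 6.37e-26), and at 4 h 10.3-fold (log2 3.36, SE 0.029, adjusted p = 3e-28). The share of the 4 h increase present at 30 min depended on the scale, with 64.4% in CPM and 103% in TPM. For the other 6 genes that were higher at 4 h, this share ran from -15.5% for Irf4 to 8.02% for Irf9 in CPM and from -41.6% for Irf4 to 3.83% for Irf9 in TPM. The direct comparison of 30 min with 15 min gave 5.16-fold for Irf1 (edgeR adjusted p = 7.02e-24), the only Irf call there, beside 4.65% of all genes called, 2.69% higher and 1.96% lower. In that comparison 2 Irf genes, Irf1 and Irf8, had libraries that did not overlap in CPM (47.6% of all genes). In TPM 5 did not overlap (58.4%), with Irf2, Irf4, Irf7, and Irf9 lower at 30 min. With no fold limit 3 were called (37.4%), Irf4 as lower. Between 30 min and 4 h Irf1 differed by 1.47-fold, which did not pass the test. The other Irf genes except Irf3 did, 6 of 8 and all higher, beside 28.6% of all genes called, 16.9% higher and 11.8% lower. In CPM the libraries did not overlap for 7 of 8 (67.5% of all genes), and 7 were called with no fold limit (65.3%). In TPM 7 did not overlap either (74.9%), but there Irf1 overlapped and Irf3 was lower at 4 h. With library-size scaling alone the Irf1 difference was 0.02 on the log2 scale, where the median of all genes was -0.58.

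**Figure D2:**
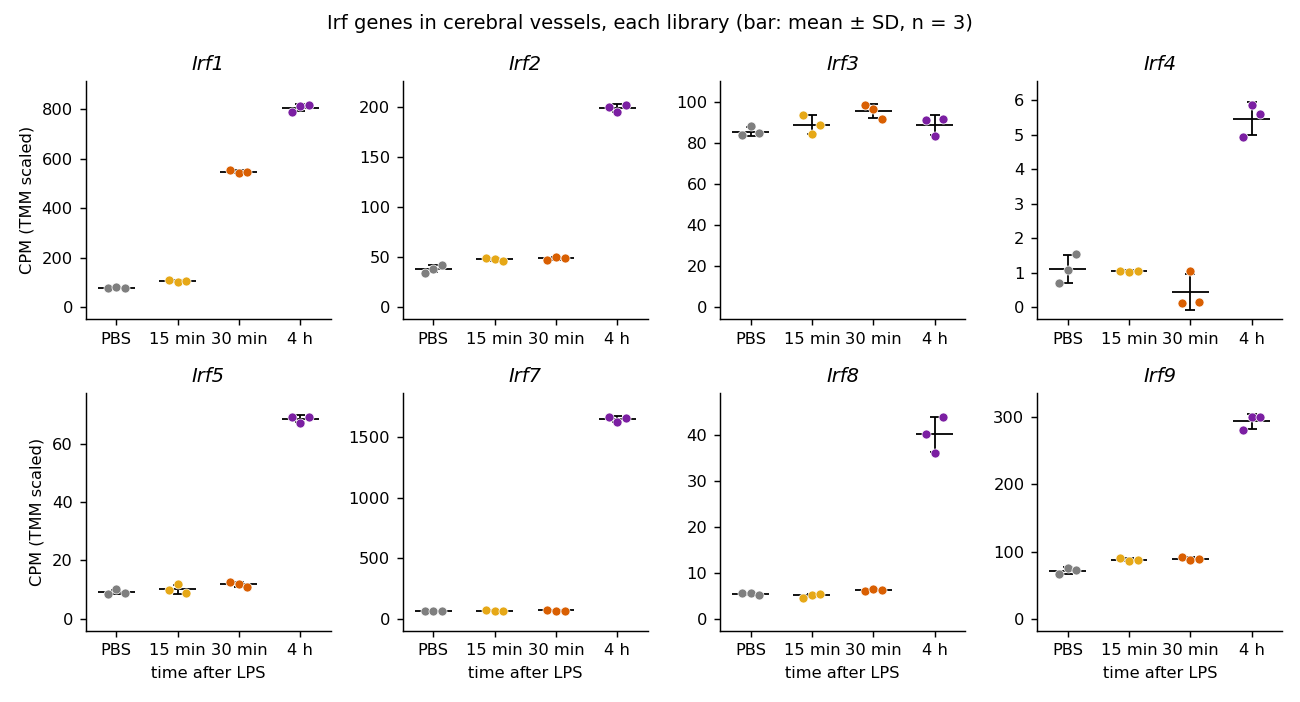
CPM of each Irf gene in every library (vertical axes, TMM-scaled, each with its own range) by time after LPS (horizontal axes); points are libraries, black bars the mean ± SD of 3. Irf1 steps up at 30 min, the other genes except Irf3 rise at 4 h, and Irf4 has 1 library near 1 CPM and a pair near 0.13 CPM at 30 min.

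Irf7, the inducible amplifier of interferon transcription (ENSMUSG00000025498, chr7:141262706-141266481, minus strand), rose most in the family but later. Its PBS libraries had 61.4, 63.6, and 61.2 CPM, those of 15 min 71.2, 64.7, and 62.5 CPM, and those of 30 min 69.4, 67.5, and 67.0 CPM. At 4 h the libraries had 1670, 1627, and 1657 CPM. The 15 min libraries overlapped those of PBS, whereas the 30 min libraries lay just above them in CPM (but not in TPM) and the 4 h libraries far above. The change at 4 h was 26.6-fold (95% interval 25.2 to 28.0, log2 4.73, SE 0.036, edgeR adjusted p = 1.45e-29). At 30 min it was 1.09-fold (1.04 to 1.16), so Irf7 was within the 1.5-fold limit when Irf1 was already 6.97-fold higher. The step from 30 min to 4 h alone was 24.3-fold (edgeR adjusted p = 6.83e-29). Exons of Irf7 share 45 bases with Phrf1 on the other strand, and the library kit does not mark the strand. Phrf1 had 71.3 fragments per 1 M in PBS and 59.1 at 4 h, before TMM scaling. The TMM factors averaged 1.17 in PBS and 0.717 at 4 h, so these values do not give the direction in TMM-scaled CPM.

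Irf3, the constitutive partner of Irf7 in interferon induction (ENSMUSG00000003184, chr7:44997648-45002848, plus strand), was the 1 gene of 8 that did not pass the test at any time. Its libraries had 83.8, 88.2, and 84.8 CPM in PBS, 93.7, 84.5, and 88.6 CPM at 15 min, 98.5, 96.5, and 91.7 CPM at 30 min, and 91.2, 83.3, and 91.9 CPM at 4 h. The PBS and 4 h libraries overlapped in CPM, and the interval of the change at 4 h, 0.968-fold to 1.11-fold, lay inside the 1.5-fold limit. The sign at 4 h depends on the scaling: with library size alone Irf3 was called lower (log2 -0.65, edgeR adjusted p = 0.0447), which was 0.06 above the shift of the median gene. In TPM every 4 h library lay below every PBS library. Irf3 shares 88 exon bases with Bcl2l12 on the other strand. Before TMM scaling, Bcl2l12 went from 16.2 fragments per 1 M in PBS to 2.51 at 4 h.

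Irf9, the DNA-binding subunit of ISGF3 (ENSMUSG00000002325, chr14:55603571-55610030, plus strand), was at 66.3, 75.7, and 72.9 CPM in PBS. It had 89.9, 86.2, and 87.8 CPM at 15 min, 91.6, 87.8, and 89.0 CPM at 30 min, and 281, 300, and 300 CPM at 4 h. Both early groups lay above every PBS library in CPM without passing the test, at 1.23-fold and 1.25-fold, and in TPM the 30 min group overlapped PBS. At 4 h the rise was 4.10-fold (log2 2.04, SE 0.041, edgeR adjusted p = 4.57e-20). Rnf31 lies on the same strand and shares 123 exon bases with Irf9, so part of the assignment between these neighbours is an estimate. Before TMM scaling, Rnf31 went from 54.1 fragments per 1 M in PBS to 119 at 4 h.

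Irf2, the antagonist of Irf1 at shared sites (ENSMUSG00000031627, chr8:46739732-46847458, plus strand), followed a course close to that of Irf9. It had 34.5, 38.2, and 41.5 CPM in PBS, 49.0, 47.8, and 45.9 CPM at 15 min, 47.2, 49.9, and 48.5 CPM at 30 min, and 200, 195, and 201 CPM at 4 h. The early libraries lay above all PBS libraries in CPM, with 1.25-fold at 15 min and 1.28-fold at 30 min, neither past the limit. In TPM (25.7 to 41.4 in PBS, 36.6 to 40.1 at 15 min, 26.8 to 36.5 at 30 min) and in the deposited normalized counts (686 to 1122, 980 to 1063, and 868 to 1188) they overlapped PBS. The rise at 4 h was 5.22-fold (log2 2.39, SE 0.050, edgeR adjusted p = 3.30e-20), and from 30 min to 4 h it was 4.10-fold. The activator and its antagonist thus rose at different times. In TPM, which allows genes to be compared, the ratio of Irf1 to Irf2 within a library was 1.63 to 2.48 in PBS and 2.18 to 2.41 at 15 min. It was 10.1 to 14.1 at 30 min and 4.01 to 4.12 at 4 h, and this ratio does not depend on how libraries are scaled.

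Irf5, which acts downstream of MyD88 (ENSMUSG00000029771, chr6:29526625-29541871, plus strand), was lower in level. It had 8.62, 10.0, and 8.74 CPM in PBS, 9.90, 11.8, and 8.68 CPM at 15 min, and 12.7, 12, and 10.9 CPM at 30 min. At 4 h the libraries had 69.1, 67.1, and 69.1 CPM, a rise of 7.48-fold (log2 2.90, SE 0.089, edgeR adjusted p = 2.31e-17). In CPM the 15 min libraries overlapped PBS and those of 30 min did not, and in TPM both did. Irf5 shares 411 exon bases with Tnpo3 on the other strand. Tnpo3 had 59.6 CPM in PBS and 53.3 CPM at 4 h, both before TMM scaling. The TMM factors differed between these groups, so these values do not give the direction in TMM-scaled CPM.

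Irf8, a factor of myeloid cells including microglia (ENSMUSG00000041515, chr8:120736358-120756694, plus strand), was at 5.58, 5.60, and 5.23 CPM in PBS, 4.58, 5.22, and 5.36 CPM at 15 min, and 6.11, 6.46, and 6.26 CPM at 30 min. It had 40.2, 36.2, and 43.9 CPM at 4 h, a rise of 7.32-fold (log2 2.87, SE 0.11, edgeR adjusted p = 8.76e-16). The cell type markers beside this rise differed in direction. Over all genes 19.0% were called higher and 13.8% lower at 4 h. None of the 10 microglia markers was called higher at 4 h and 5 were lower (P2ry12, Siglech, Sall1, Cx3cr1, and Gpr34), with a summed level of 181 to 188 CPM in PBS and 114 to 117 CPM at 4 h. Of 6 perivascular macrophage markers 3 were higher (116 to 123 CPM in PBS, 183 to 187 CPM at 4 h). All 7 neutrophil markers tested were higher (7.01 to 8.74 CPM, then 222 to 228 CPM), and the 8 listed markers were above 0 as a set at every time although Ly6g was at 0 in PBS. Of 4 monocyte markers 3 were higher (38.7 to 47.9 CPM, then 135 to 139 CPM). Of 4 plasmacytoid dendritic cell markers tested, Bst2 and Tcf4 were higher and Siglech lower (302 to 325 CPM in sum, then 1322 to 1329 CPM), Bst2 being also an interferon-stimulated gene and Tcf4 not restricted to these cells. The part of these cells in the rise of Irf8, Irf7, Irf5, or Irf4 was not tested. Irf8 lies within the annotated span of Gm20388 without sharing an exon base with it. Before TMM scaling, Gm20388 was at 26.9 CPM at 15 min and at 0 in PBS and at 4 h.

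Irf4, best known from lymphocytes (ENSMUSG00000021356, chr13:30749226-30766976, plus strand), was near the floor of detection. It had 19, 32, and 40 fragments in the PBS libraries, 31, 24, and 28 at 15 min, 3, 24, and 3 at 30 min, and 64, 88, and 82 at 4 h. As CPM these were 0.712, 1.08, and 1.53 in PBS and 4.93, 5.86, and 5.60 at 4 h, groups that did not overlap. The rise at 4 h was 4.93-fold with a wide interval (2.79 to 8.72, log2 2.30, SE 0.40, edgeR adjusted p = 0.000201). The value at 30 min rested on 1 library. With all 3 the log2 fold change was -1.33 (SE 0.49, edgeR adjusted p = 0.39). With no fold limit all 3 gave a call lower than in PBS (edgeR adjusted p = 0.035) and lower than at 15 min (edgeR adjusted p = 0.0496). Of all genes 36.9% and 37.4% were called so. Without the second library of that group Irf4 also passed the test with the fold limit. It was then lower than in PBS (log2 -3.01, edgeR adjusted p = 0.00067) and lower than at 15 min (log2 -2.93, edgeR adjusted p = 0.00125). At 4 h against 30 min the log2 difference was 3.63 with every library and 5.31 without that one. B cell markers were 20.1 to 22.3 CPM in sum in PBS, 9.75 to 11.4 CPM at 30 min, and 14.3 to 15.7 CPM at 4 h, with 4 of 6 called lower at 30 min and 1 of 6 at 4 h. Over all genes 0.799% were called lower at 30 min, and 19.0% were called higher and 13.8% lower at 4 h. Plasma cell markers were 136 to 141 CPM in sum in PBS and 560 to 581 CPM at 4 h, where 1 of 4, Xbp1, was called higher. The median log2 fold change of these 4 at 4 h was 0.14, so the sum does not describe the list. T cell markers summed to 4.73 to 4.83 CPM in PBS, 1.97 to 3.16 CPM at 30 min, and 21.3 to 22.7 CPM at 4 h. Of the 4 tested, Lck (1.36 to 14.1 CPM) and Trac (2.05 to 7.55 CPM) were called higher at 4 h and Cd3e lower (0.610 to 0.0958 CPM). The part of these lymphocyte markers in the Irf4 values was not tested.

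Compared per length, the makeup of the family changed at each step after 15 min. In PBS the order by TPM was Irf3 (161 ± 2.63, SD, n = 3), Irf1 (66.5 ± 2.32), Irf7 (58.0 ± 2.27), Irf9 (51.7 ± 3.97), Irf2 (34.0 ± 7.88), Irf5 (7.59 ± 0.58), Irf8 (3.25 ± 0.16), and Irf4 (0.378 ± 0.13), in which only Irf7 and Irf9 overlapped as neighbours. At 15 min Irf9 and Irf7 overlapped again. At 30 min Irf1 stood first with 369 ± 6.86 TPM, which was 54.4% ± 0.17 of the summed TPM of the 8 genes, and Irf3 second with 158 ± 9.49 TPM. At 4 h Irf7 stood first with 894 ± 24.5 TPM, or 56.3% ± 1.02 of the sum, Irf1 second with 360 ± 3.21 TPM, and Irf9 next with 111 ± 4.02 TPM. Irf2 and Irf3 then overlapped at 89.0 ± 0.69 and 85.2 ± 4.54 TPM. The share of Irf3 was 42.1% ± 1.08 in PBS, 39.7% ± 1.71 at 15 min, 23.3% ± 0.89 at 30 min, and 5.37% ± 0.28 at 4 h. The summed TPM of the family was 382 ± 15.5 in PBS, 446 ± 23.7 at 15 min, 678 ± 14.6 at 30 min, and 1588 ± 16.9 at 4 h. The ratio of Irf7 to Irf3 within a library was 0.346 to 0.369 in PBS, 0.328 to 0.373 at 30 min, and 9.75 to 10.9 at 4 h.

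**Figure D3:**
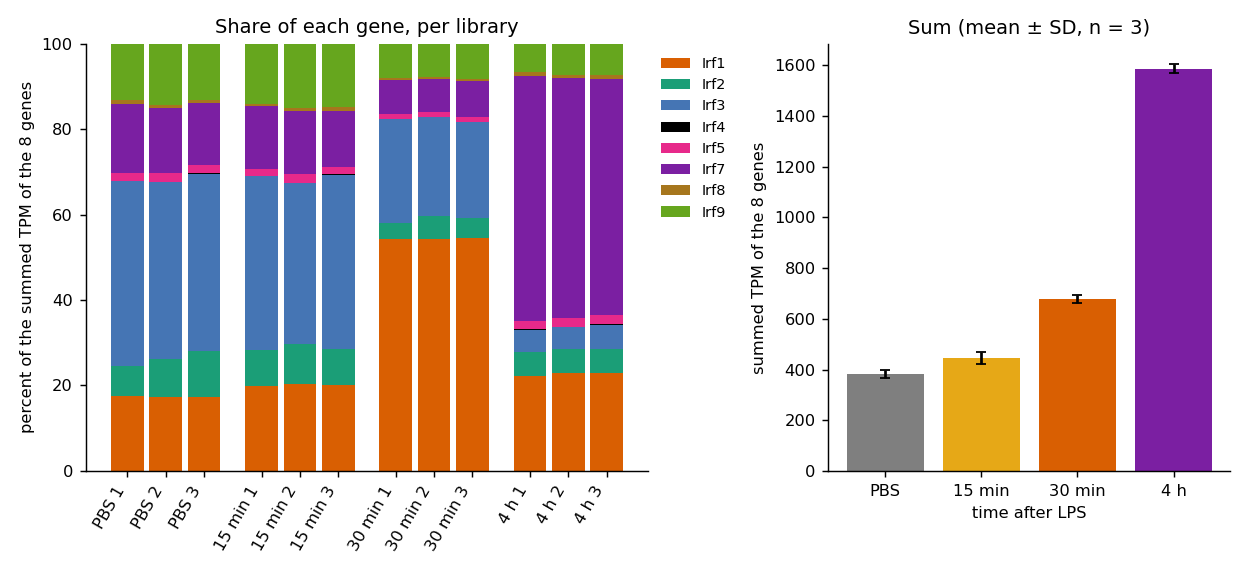
Left, percent of the summed TPM of the 8 Irf genes held by each gene (vertical axis) in each of the 12 libraries (horizontal axis, grouped by time); right, the summed TPM (mean ± SD, n = 3). Irf3 holds the most in PBS (42.1%), Irf1 at 30 min (54.4%), and Irf7 at 4 h (56.3%), and the 3 libraries of a group look alike.

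The first place of Irf3 in PBS rested on annotated transcripts that retain an intron. These 6 transcripts held 78.9% ± 0.99 of the Irf3 TPM in PBS and 73.8% ± 3.01 at 4 h. Counting only transcripts annotated as protein coding, Irf3 had 33.9 ± 1.75 TPM in PBS, which put it behind Irf1 (65.3 ± 2.31), Irf9 (43.9 ± 4.13), and Irf7 (38.6 ± 0.67). At 30 min Irf1 (358 ± 6.25) and at 4 h Irf7 (532 ± 23.8) were still first on that basis. Salmon divides fragments among overlapping transcripts, so these shares are estimates.

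Irf1 was made up almost wholly of 1 coding transcript, Irf1-202, with 91.3% ± 2.95 of the gene TPM in PBS and 96.6% ± 0.35 at 30 min. Its only annotated retained-intron transcript, Irf1-210, had a larger share at 15 min than at any other time, with 1.67% to 1.93% in PBS, 3.79% to 4.98% at 15 min, 2.14% to 2.88% at 30 min, and 2.04% to 2.57% at 4 h. The 15 min libraries overlapped no other group in this share, and its level went from 1.22 ± 0.09 TPM in PBS to 3.83 ± 0.55 TPM at 15 min and 9.37 ± 1.45 TPM at 30 min. For Irf7, the coding transcript Irf7-201 held 42.3% ± 2.68 of the gene TPM in PBS, 33.8% ± 2.31 at 15 min, 29.6% ± 2.59 at 30 min, and 23.2% ± 1.97 at 4 h, while Irf7-202 held 9.16% ± 0.96 and 18.2% ± 0.59 in PBS and at 4 h. Coding transcripts together made up 66.7% ± 3.37 of Irf7 in PBS and 59.5% ± 1.36 at 4 h. Irf5-201 held 92.6% ± 6.74 of Irf5 in PBS and 78.3% ± 5.69 at 4 h, with the 4 h libraries (71.9% to 82.7%) below all others. Irf8-201 held more than 85% of Irf8 in every library. Within the PBS group Irf2-201 ran from 60.2% to 87.1% and Irf9-202 from 44.9% to 71.0%.

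**Figure D4:**
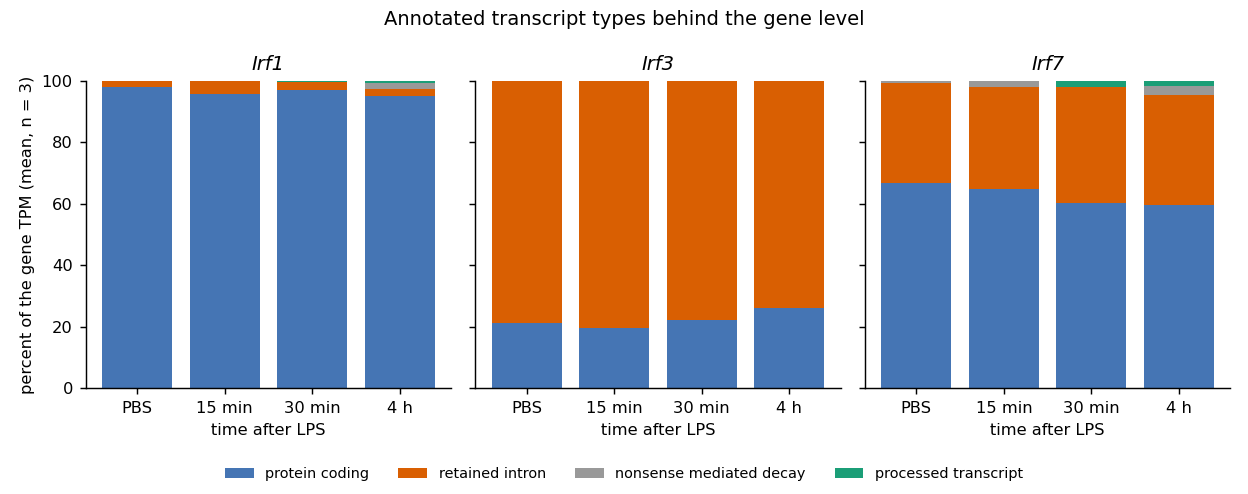
Percent of the gene TPM (vertical axis, mean of 3 libraries) held by each annotated transcript type of Irf1, Irf3, and Irf7 by time after LPS (horizontal axis). Irf1 is nearly all protein coding, Irf3 is mostly retained-intron transcripts (78.9% in PBS), and Irf7 is 66.7% protein coding in PBS.

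Among the ligands and receptors that act through these factors, interferon transcripts themselves were hardly seen. Of 16 listed genes 6 had enough fragments to test. Ifnb1, the interferon gene that Irf3 and Irf7 induce first, was covered by 0 fragments in all PBS and 15 min libraries together, by 1 at 30 min, and by 4 at 4 h. A count of 0 in a library allows up to 3 fragments, or 0.117 to 0.165 per 1 M fragments before TMM scaling. This covers counting error only. Ifng, the type II interferon gene, had the most fragments of the untested interferon genes, with 0 in PBS, 4 at 15 min, 10 at 30 min (8 of them in 1 library), and 19 at 4 h (4, 6, and 9). No Ifna gene listed (Ifna1, Ifna2, Ifna4, and Ifna5) had a fragment after LPS, and Ifna2 had 1 in PBS. The receptor gene Ifnar1 was at 180 CPM in PBS and 156 CPM at 4 h (log2 -0.21, SE 0.030) and Ifnar2 at 110 and 168 CPM (log2 0.61, SE 0.042), neither past the test. Ifnlr1, the type III interferon receptor chain, was higher (1.22 to 4.11 CPM, 3.38-fold, edgeR adjusted p = 0.00014), and Ifngr2 was the other call. These 2 of 6 are near the share over all genes, of which 32.8% were called at 4 h. At 15 min and 30 min edgeR called 0 of the 6, beside 4.18% and 4.58% of all genes, with no unadjusted p under 0.05.

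Of 5 receptor kinases and Stats, 4 were higher at 4 h and none lower, beside 19.0% and 13.8% of all genes. Stat2, the partner of Irf9, rose most (82.9 to 601 CPM, 7.24-fold), and Jak1 rose 3.81-fold (92.0 to 350.2 CPM). Tyk2, the kinase bound to Ifnar1, had 47.8 CPM in PBS and 38.7 CPM at 4 h (log2 -0.31, SE 0.061), which did not pass. None of the 5 was called at 15 min or 30 min (4.18% and 4.58% of all genes were), and none had an unadjusted p under 0.05. The median log2 fold change of the list at 4 h was 2.53.

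Sensors, adaptors, and kinases that lead to Irf3, Irf5, and Irf7 were called higher in 11 of 19 cases at 4 h and lower in none. Over all genes 19.0% were called higher and 13.8% lower. The list had a median log2 fold change of 1.76. The kinases of Irf3 and Irf7 were among the genes called higher: Tbk1 rose 6.35-fold (40.6 to 258 CPM) and Ikbke 11.1-fold (5.96 to 66.1 CPM). Myd88, the adaptor toward Irf5 and Irf7, rose 11.1-fold (27 to 301 CPM), whereas Ticam1, the adaptor toward Irf3, had 11.3 and 19 CPM and did not pass (log2 0.75, SE 0.11, edgeR adjusted p = 0.0642). Tlr4, the LPS receptor, rose 6.63-fold (5.83 to 38.6 CPM). Ifih1, a sensor of viral RNA, had the largest rise of the list, 19.2-fold. None of the 19 was called at 15 min or 30 min (4.18% and 4.58% of all genes were), and none had an unadjusted p under 0.05 there.

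Partners and corepressors made a mixed group. At 4 h 7 of 10 were higher and 1 was lower, beside 19.0% and 13.8% of all genes. The median of the 10 on the log2 scale was 1.47 against PBS. Batf, which pairs with Irf4 and Irf8, rose 16.8-fold (2.90 to 48.6 CPM), the most in the list, and Spi1, which recruits Irf4 and Irf8 to DNA, rose 6.63-fold (4.67 to 31 CPM). The corepressor gene Irf2bp2 rose 2.95-fold. Tcf3, an E protein of lymphocyte development, was the 1 that fell, by 2.35-fold (113 to 48.0 CPM, edgeR adjusted p = 1.82e-12). At 30 min 1 of 10, Ikzf3, was lower, beside 0.799% of all genes. Ikzf3 had under 1 CPM in every group mean. At 15 min none of the 10 was called, beside 4.18% of all genes, and 2 had an unadjusted p under 0.05.

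Most known target genes were called at 4 h and not earlier. Of 15 genes known as targets of Irf1, 14 were higher and 1 lower at 4 h (median log2 3.93), beside 19.0% and 13.8% of all genes. At 30 min, when Irf1 had risen 6.97-fold, 1 of 15 was higher, beside 3.78% of all genes, and the list's median was -0.07. The gene called at 30 min was Cxcl10, a chemokine, with means of 1.96 CPM in PBS, 4.50 CPM at 15 min, 35.9 CPM at 30 min, and 9069.7 CPM at 4 h. It was also the 1 called at 15 min, where 3.31% of all genes were called higher. Gbp2, a guanylate-binding protein, had 70.6, 84.5, 99.0, and 4478 CPM over the same groups. Tap1, the peptide transporter of antigen presentation, had 53.8 CPM in PBS, 48.5 CPM at 30 min, and 1071 CPM at 4 h, and Nlrc5, a transactivator of MHC class I, had 21.9, 19.6, and 696 CPM. Ciita, the transactivator of MHC class II, was the 1 that fell (1.95 to 0.787 CPM, edgeR adjusted p = 0.0173).

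All 15 genes known as targets of Irf3, Irf7, and ISGF3 were higher at 4 h, beside 19.0% of all genes, with a median log2 of 6.04. At 15 min or 30 min 0 were called, beside 4.18% and 4.58% of all genes, and none had an unadjusted p under 0.05 then. Mx1, an antiviral GTPase, rose most (1.68 to 650 CPM, 388-fold). Ifit1 rose 47.3-fold, Ifit3 66-fold, Isg15 25-fold, Rsad2 330-fold, and Usp18 34.1-fold. Against these, 9 early target genes of NF-kB had 5 calls at 15 min, 8 at 30 min, and 9 at 4 h, all higher. Of all genes 3.31%, 3.78%, and 19.0% were called higher at these times. The 9 genes had a median log2 of 1.23, 2.62, and 4.77. Cxcl1, a neutrophil chemokine, had the largest rise among them (1.43 to 3482 CPM at 4 h).

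**Figure D5:**
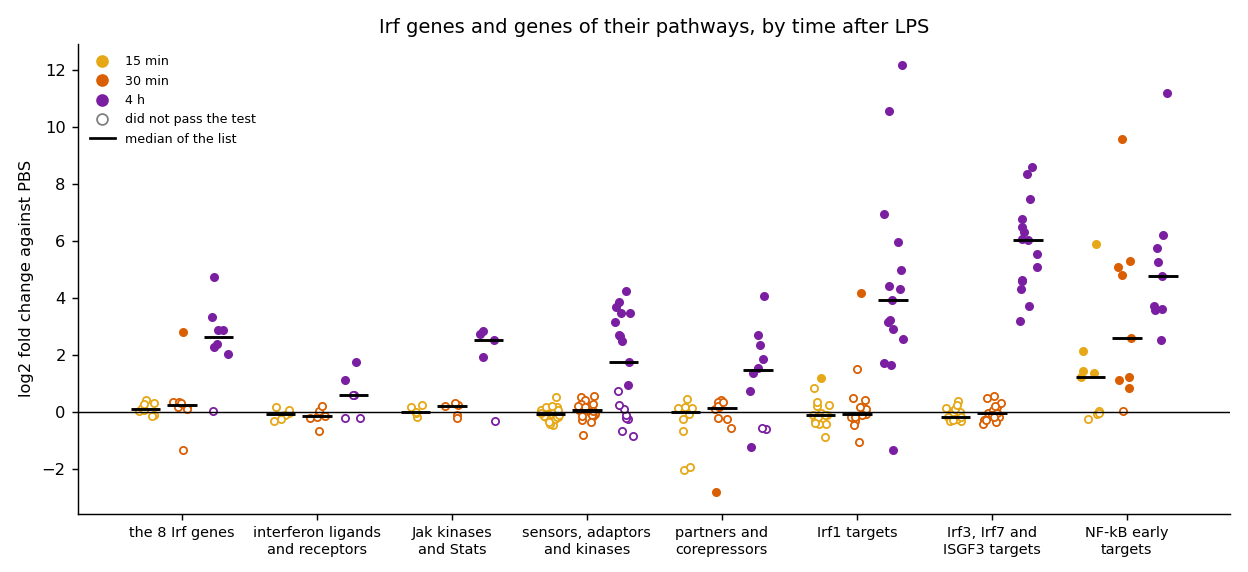
Log2 fold change against PBS (vertical axis) of the 8 Irf genes and of 7 gene lists around them (horizontal axis) at the 3 times after LPS; each point is a gene, open where it did not pass the test, and black lines are list medians. The NF-kB targets have filled points at 15 min (5 of 9), whereas the Irf3, Irf7 and ISGF3 targets are all open until 4 h (15 of 15).

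Genes with the profile most like each Irf gene over the 12 libraries are given as a description. Likeness was measured by Pearson's r of log2(CPM + 1) among 12802 genes with at least 5 CPM on average. These libraries form 4 groups, so r mainly describes the pattern of the group means. Irf1 was closest to Csf1, a macrophage growth factor (r = 0.999), whose means were 80.5, 103, 616, and 941 CPM, then to Bcar1 and Tnfaip3 (0.998 and 0.995). Irf7 was closest to Tor1aip2, Lgals9, and Ifit3b (each 1.00 when rounded), with Lgals9 at 78.0, 78.3, 85.2, and 973 CPM. Irf2 was closest to Grina, Irf9, and Map2k3, and Irf9 in turn to Irf2 (r = 0.998), Rps6ka3, and Ifi35. Irf5 was closest to Mbd1, Sema4c, and Cyp7b1, Irf8 to Cacul1, Chmp4b, and Selenow, and Irf4 to Nsmaf (r = 0.979), Smad3, and Asb13. Irf3 had no such close match, with 0.860 for Mro as the highest.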

How the data were processed

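Cerebral vessels were profiled in 12 libraries (SMART-Seq v4 with Nextera XT, paired-end, no strand information). Per the submitters' processing notes, the authors quantified transcripts with Salmon 1.2.1 on GRCm38.p6 and normalized with DESeq2. The deposited estimated counts are fragments per transcript. Deposited TPM came from the same Salmon runs and corrects for effective length. The deposited gene table holds a normalized signal from DESeq2 (after tximport) and was used as an alternative. It is not fragments divided by 1 factor per library. In PBS library 1, Irf1 had 1671 for 2038 fragments and Irf2 had 686 for 920, so it carries a correction that differs by gene.

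Transcripts were joined to GENCODE M21 (139852 of 140948; the rest held 0.482% to 0.850% of fragments), and counts were summed per gene and rounded. In edgeR 4.0.16 (R 4.3.3), filterByExpr (minimum count 10, total 15, share 0.7) kept 19150 genes. TMM factors, 1 quasi-likelihood fit over 12 libraries, and glmTreat against at most 1.5-fold gave p-values, adjusted by Benjamini-Hochberg over all genes and called under 0.05. SE is the log2 fold change divided by the root of F. The p-values measure the spread between these libraries. Replicates differed by 2.21 to 2.87 times counting noise, so none was a duplicate. Library numbers did not pair samples (18 correlations, -0.067 to 0.052).

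On simulated counts with the trended spread of these libraries, the 4 h comparison recovered 83% of 2-fold and 100% of 4-fold changes with 0 false calls. The simulation changed 200 genes in random directions and gave no gene a spread of its own. At 4 h 6273 genes were called, so it does not cover a shift of that size. Genes named were every Irf gene, a set list of pathway genes, and the largest called rise and fall of each list at 4 h. The 3 most similar profiles of each Irf gene were also named. Overlapping genes, Ly6g, Xbp1, Ikzf3, Ifng, Ifngr2, Bst2, Tcf4, Siglech, Lck, Trac, and Cd3e were named after their values were seen. Some genes of the lists are not reported here and were left out of their counts. The members and lists were chosen with earlier results of these data known. Alternatives were DESeq2 1.42.0, RLE factors, library size only, no filter, no fold limit, a length offset, only the groups compared, a replicate block, limma 3.58.1 on the deposited signal plus 1 or 10, each library left out, and other scales for levels. The level from protein-coding transcripts alone and overlap on other scales were added after seeing the data. Python 3.11.15 with pandas 2.3.3, numpy 2.4.6 and matplotlib 3.10.9 was used.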

Additional observations from a re-analysis of the deposited data

Results flagged for a closer look

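The LPS effect against PBS differed between 15 min and 30 min for 1 Irf gene, by the direct comparison of these times: Irf1 was 2.37 higher on the log2 scale at 30 min. Between 30 min and 4 h the effect differed for 6 genes, by 2.03 for Irf2, 3.63 for Irf4, 2.53 for Irf5, 4.60 for Irf7, 2.67 for Irf8, and 1.72 for Irf9. The Irf4 value rests on 3, 24, and 3 fragments at 30 min and became 5.31 without the second library. Groups of 3 libraries are too small for the test for single outlying values, which was not run.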

How the results depend on the processing

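No call was lost or changed direction under any alternative: all 240 alternative values of the called genes kept sign and call. Of 640 alternative values of single genes, 611 kept sign and side of the threshold, 14 passed it newly with the same sign, and 15 changed sign. Among the sign changes, Irf3 at 4 h with library size only also passed the threshold newly, as lower (edgeR adjusted p = 0.0447). With no fold limit 3, 7, and 3 genes were called at 15 min, at 30 min, and at 30 min against 15 min. Among these calls Irf4 was lower in both comparisons of 30 min, and the other genes were higher. Without the second 30 min library, 2 were called at 30 min against PBS and 2 against 15 min, Irf4 (lower) joining Irf1. With a library left out, calls numbered 0 to 0 at 15 min, 1 to 2 at 30 min, 7 to 7 at 4 h, 1 to 2 for 30 min against 15 min, and 6 to 6 for 4 h against 30 min. With the library number as a replicate block, the counts were 0, 1, 7, 1, and 6 as without it, and the numbers did not pair the libraries. Sign changes were all in values that the test had not called. With library size only they were Irf3 (-0.0067) and Irf7 (-0.034) at 30 min, Irf3 at 4 h (-0.65), and Irf2 (-0.11), Irf3 (-0.038), Irf7 (-0.10), and Irf9 (-0.12) at 30 min against 15 min. Irf3 at 4 h was -0.034 with a length offset, -0.036 with limma plus 1, and -0.036 with limma plus 10. Irf2 at 30 min against 15 min was -0.023, -0.026, and -0.026 under the same settings. With a library left out, Irf4 at 15 min ran from -0.31 to 0.21 (without the third PBS library), and Irf7 at 30 min against 15 min from -0.0035 (without the third 15 min library) to 0.095.

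On protein-coding transcripts only, Irf3 held 15.2% of the family TPM in PBS and 1.99% at 4 h, Irf7 17.3% in PBS and 47.5% at 4 h, and Irf1 70.0% at 30 min. With a library left out these shares of all TPM ran from 41.5% to 42.4%, 5.22% to 5.49%, 14.8% to 15.6%, 55.7% to 56.8%, and 54.3% to 54.5%. Other length scalings moved them by less than the SD but could not test them. CPM per kb of effective length is proportional to TPM within a library, so its shares had to be the same. Deposited counts per kb gave the same shares too, with 42.1% for Irf3 in PBS. That signal came after tximport and already carries a correction that differs by gene, so its match was no separate test.

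Against PBS 800, 877, and 6273 of all genes were called at the 3 successive times, 891 for 30 min against 15 min, and 5484 for 4 h against 30 min. With no fold limit these were 7393, 7066, 13124, 7153, and 12498. With limma plus 1 the 3 early counts were 406, 531, and 443, and with limma plus 10 they were 385, 497, and 413. With library size only, 10462 and 8848 were called in the 2 comparisons of 4 h. The share of calls that were higher was 58.0% at 4 h, 82.6% at 30 min, 57.9% for 30 min against 15 min, and 58.9% for 4 h against 30 min, and with library size only 18.2%, 61.4%, 37.2%, and 21.7%. For 30 min against 15 min it was 69.8% and 70.0% with limma plus 1 and plus 10. The cause was not tested. Irf4 is limited by depth, and 3 libraries against 3 allow no exact permutation p below 0.1.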
